A study of Mus musculus with 6 samples.

Results

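The myeloid C-type lectin receptors are 10 genes, Clec4a1, Clec4a2, Clec4a3, Clec4d, Clec4e, Clec4n, Clec5a, Clec7a, Clec10a and Clec12a, chosen by gene symbol among the 49568 symbols of the count table. They and the other gene lists were chosen with earlier results of these data known. All 10 members were in the table, and all 10 passed the filter on low counts among 19199 genes tested. Poly(A) RNA of whole lungs was sequenced from 3 TNF-Tg mice and 3 WT littermates, all female, 4 months of age and on a C57BL/6 background. TNF-Tg mice overexpress a human TNF transgene and develop chronic inflammatory arthritis and pulmonary vascular disease, and the WT mice lack it. Each mouse gave 1 library, and the transgene has no row of its own in the table of mouse genes.

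C-type lectin receptors are cell surface proteins of macrophages, monocytes, neutrophils and dendritic cells that bind sugars, glycolipids and products of damaged cells. The activating members signal through tyrosine motifs, either their own or those of the adaptors FcR gamma (Fcer1g) and DAP12 (Tyrobp), to the kinase SYK and the CARD9, BCL10 and MALT1 complex. Inhibitory members carry a tyrosine motif that recruits the phosphatases SHP-1 (Ptpn6) and SHP-2 (Ptpn11).

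The total counts per lung were between 25396923 and 32529408, and 3 counts, taken as the detection floor, stood at 0.0922 to 0.118 CPM (counting error only). All members were above this floor in every lung, with at least 29 counts. A pair of libraries stood apart from the rest. Gm42418 took up 5.22% of TNF-Tg replicate 1 and at most 0.274% of any other library. In WT replicate 1, 10 genes of squamous epithelium and skeletal muscle held 164006 counts, against 307 to 1224 in the other lungs. Without both libraries the log2 fold changes of the members were between 1.57 and 6.99, and all 10 still passed the cutoff (largest adjusted p = 0.00701). Of 10 lung genes, 8, among them Ager and Hopx, were lower in TNF-Tg lungs and none was higher, where 23.4% of all genes tested were called lower, while Sftpc (log2 fold change -0.52, adjusted p = 0.0837) and Sftpa1 were not called.

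All 10 lectin genes were higher in TNF-Tg lungs, by 3.03-fold for Clec10a up to 144-fold for Clec4e. Every TNF-Tg lung lay above every WT lung for each of them. With edgeR's quasi-likelihood test and Benjamini-Hochberg adjustment over all genes, 10 of 10 had an adjusted p under 0.05, where 47.4% of all genes tested were called in either direction and 24.0% were called higher. With a log2 fold change of at least 1 as well, the number was again 10, where 10.3% of all genes were called higher. Groups with every TNF-Tg lung on top were seen in 30.5% of all genes. Since the members were chosen with earlier results of these data known, their counts are not independent of that choice. The median log2 fold change was 3.34 over the members and 0.03 over all genes tested. Summed over the 10 genes, the normalized counts (counts scaled to equal library size) were 29278, 29963 and 23119 in TNF-Tg lungs and 1558, 1666 and 1940 in WT lungs, a ratio of 16.0. In RNA of a whole organ, more cells of a type and more RNA per cell cannot be told apart.

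**Figure D1:**
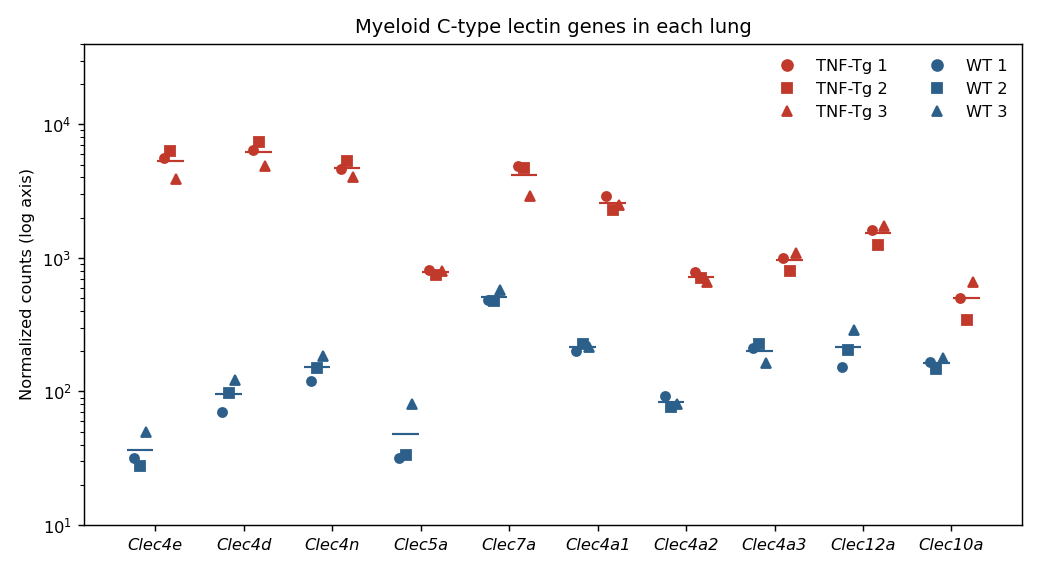
Normalized counts (log axis) of the 10 lectin genes in each lung, with WT lungs in blue, TNF-Tg lungs in red, a symbol for each replicate and a line at the group mean. No gene has overlapping groups, and the gap is widest for Clec4e (27.8 to 49.8 in WT lungs and 3894 to 6326 in TNF-Tg lungs) and narrowest for Clec10a (148 to 179 and 341 to 655).

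Among the 10 genes, the 3 that encode activating receptors paired with FcR gamma, Clec4e, Clec4d and Clec4n, had the largest log2 fold changes. Their genes lie side by side on chromosome 6 of mm10 (GRCm38). The 150 bases before the annotated starts of the pair with the largest changes are shown. These neighbours lie on opposite strands with their ends facing, and shared control of the pair was not tested. Capitals mark the only matches found in the printed bases, to a C/EBP motif 66 to 59 bases and to a TATA box 29 to 24 bases before the start of Clec4e. The sequences are from RefSeq on GRCm38.p6, each on the strand of its gene, at chr6:123289872-123290021 on the minus strand and chr6:123261957-123262106 on the plus strand.
Clec4e: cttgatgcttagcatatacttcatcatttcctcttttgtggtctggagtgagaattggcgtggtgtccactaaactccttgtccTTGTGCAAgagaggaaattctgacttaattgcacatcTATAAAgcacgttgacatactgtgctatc
Clec4d: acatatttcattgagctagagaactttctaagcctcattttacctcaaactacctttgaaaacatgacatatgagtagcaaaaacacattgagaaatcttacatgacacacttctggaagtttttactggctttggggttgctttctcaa

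Clec4e (ENSMUSG00000030142.10, chromosome 6, 123281789 to 123289870, minus strand) encodes Mincle, a receptor for mycobacterial cord factor and for a nuclear protein released by dying cells. It had 5596, 6326 and 3894 normalized counts in the TNF-Tg lungs and 31.5, 27.8 and 49.8 in the WT lungs. All TNF-Tg lungs were thus far above the WT lungs, and the highest WT lung was replicate 3. The log2 fold change was 7.17 (standard error, SE, 0.29, adjusted p = 3.61e-06), and the gene ranked 19 of 19199 by size of the rise. Clec4d (ENSMUSG00000030144.4, chromosome 6, 123262111 to 123275265, plus strand) encodes MCL, which binds the same glycolipid and forms a complex with Mincle. Its normalized counts were 6477, 7411 and 4850 in TNF-Tg lungs and 70.7, 96.8 and 121 in WT lungs. As for Clec4e, replicate 2 was the highest TNF-Tg lung and replicate 3 the highest WT lung. The log2 fold change was 6.02 (SE 0.26, adjusted p = 4.18e-06), which ranked 53 by size. Clec4n (ENSMUSG00000023349.14, chromosome 6, 123229843 to 123247021, plus strand) encodes Dectin-2, a receptor for fungal mannans. It had 4657, 5360 and 4049 normalized counts in TNF-Tg lungs and 119, 150 and 185 in WT lungs. The order of the lungs was that of Clec4d in both genotypes, and the log2 fold change was 4.95 (SE 0.19, adjusted p = 3.26e-06).

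Of the other activating receptors, Clec5a (ENSMUSG00000029915.14, chromosome 6, 40574894 to 40585821, minus strand) encodes MDL-1, which signals through DAP12 and DAP10. Its normalized counts were 812, 745 and 795 in TNF-Tg lungs and 31.5, 33.5 and 80.0 in WT lungs. The TNF-Tg lungs were close together, with a coefficient of variation of 4.48%, whereas WT replicate 3 stood well above the other two WT lungs. The log2 fold change was 4.01 (SE 0.34, adjusted p = 5.58e-05), and 4.58 without WT replicate 3. Clec7a (ENSMUSG00000079293.11, chromosome 6, 129461591 to 129472779, minus strand) encodes Dectin-1, the beta-glucan receptor, which carries its own tyrosine motif. GENCODE M21 lists it as a polymorphic pseudogene, which did not keep reads from being counted on it. It had 4901, 4739 and 2918 normalized counts in TNF-Tg lungs against 484, 474 and 577 in WT lungs, and was the highest of the 10 by normalized counts in every WT lung. Its log2 fold change was 3.03 (SE 0.21, adjusted p = 2.34e-05).

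The DCIR genes share the Clec4 cluster and had smaller log2 fold changes than Clec4d, Clec4e and Clec4n. Their changes were larger than that of Clec4b1 (1.73), a further activating receptor gene of the cluster that is not among the 10. Clec4b2, also in the cluster, had too few counts to be tested. Clec4a2 (ENSMUSG00000030148.15, chromosome 6, 123106428 to 123143999, plus strand) encodes DCIR, an inhibitory receptor of dendritic cells and macrophages. It had 790, 702 and 658 normalized counts in TNF-Tg lungs and 91.7, 76.7 and 80.9 in WT lungs, a log2 fold change of 3.11 (SE 0.14, adjusted p = 4.99e-06). Clec4a1 (ENSMUSG00000049037.8, chromosome 6, 122921848 to 122934619, plus strand), which encodes the related DCIR4, had 2915, 2286 and 2473 against 200, 226 and 215. With WT lungs this close together, its log2 fold change of 3.58 (SE 0.13, adjusted p = 2.72e-06) had the lowest p-value of the 10 and ranked 12 of all genes by p. Clec4a3 (ENSMUSG00000043832.13, chromosome 6, 122952515 to 122969875, plus strand), which encodes DCIR3, had 1003, 802 and 1090 normalized counts against 211, 228 and 164. Its log2 fold change was 2.26 (SE 0.17, adjusted p = 3.68e-05).

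Clec12a (ENSMUSG00000053063.11, chromosome 6, 129342691 to 129365303, plus strand) encodes MICL, an inhibitory receptor that binds uric acid crystals. Its normalized counts were 1628, 1250 and 1737 in TNF-Tg lungs and 152, 205 and 289 in WT lungs, with a log2 fold change of 2.84 (SE 0.24, adjusted p = 5.85e-05). Clec10a (ENSMUSG00000000318.16, chromosome 11, 70156197 to 70170834, plus strand) encodes MGL1, an endocytic receptor for galactose-type sugars, and is the only member outside chromosome 6. It had 498, 341 and 655 normalized counts in TNF-Tg lungs and 166, 148 and 179 in WT lungs. This was the smallest rise of the 10, with a log2 fold change of 1.60 (SE 0.23, adjusted p = 0.000943), and the TNF-Tg lungs varied most, with a coefficient of variation of 31.5%.

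The lungs did not keep the same order for all members. Replicate 2 was the highest TNF-Tg lung for Clec4d, Clec4e and Clec4n, replicate 1 for Clec4a1, Clec4a2, Clec5a and Clec7a, and replicate 3 for Clec4a3, Clec10a and Clec12a. Among WT lungs, replicate 3 was the highest for 7 of the 10 genes. Few windows of 100 bases, the read length, were shared between the transcripts of a member and another gene. They were 2.14% of those of Clec4a2, shared with Clec4a4, and 2.64% of those of Clec10a, shared with Mgl2, and the other 8 members shared none. No overlapping gene had more than 1 count in a lung.

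Per kilobase of exon, which allows genes to be compared, the order of the levels differed between the genotypes. In WT lungs Clec7a had the highest level (194 ± 21.5 normalized counts per kilobase, SD, n = 3) and did not overlap with Clec4a3 (152 ± 24.9, SD, n = 3), the next in order. Clec4e was the lowest in WT lungs (7.32 ± 2.37, SD, n = 3) and overlapped with Clec5a (12.6 ± 7.14, SD, n = 3). In TNF-Tg lungs Clec4d had the highest level (3906 ± 810, SD, n = 3), followed by Clec4n (3302 ± 462, SD, n = 3), and these neighbours overlapped. Clec4a1, Clec7a, Clec4e and Clec4a3 came next, from 1642 ± 207 to 728 ± 111 (SD, n = 3), each overlapping with its neighbour in that order. Clec10a was the lowest in TNF-Tg lungs (172 ± 54.1, SD, n = 3) and overlapped with Clec5a (204 ± 9.15, SD, n = 3). Exon lengths count every annotated transcript, so genes with long rarely used exons stand too low on this scale.

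The makeup of the summed counts was compared because a common rise of all members would leave it unchanged. Clec4d, Clec4e and Clec4n together held 57.1%, 63.7% and 55.3% of the summed normalized counts in the TNF-Tg lungs and 14.2%, 16.5% and 18.3% in the WT lungs. Clec4e alone went from 2.09% ± 0.452 (SD, n = 3) to 19.0% ± 2.14 (SD, n = 3), and Clec7a from 29.8% ± 1.28 (SD, n = 3) to 15.1% ± 2.16 (SD, n = 3). The groups did not overlap for 9 of the 10 shares, of which those of the 3 named first were higher and 6 were lower in TNF-Tg lungs (two-sided exact permutation test, p = 0.1 for each, the smallest p that 3 lungs against 3 allow). The share of Clec5a overlapped (2.90% ± 0.489 against 2.72% ± 1.21, SD, n = 3, exact permutation test p = 0.8). Shares add up to the whole, so a larger share of some genes lowers that of the others. They were taken within the 10 genes only, so no count over all genes stands beside the 9. Per kilobase of exon, Clec4d, Clec4e and Clec4n together held 59.8% to 67.6% in TNF-Tg lungs and 18.5% to 25.1% in WT lungs.

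**Figure D2:**
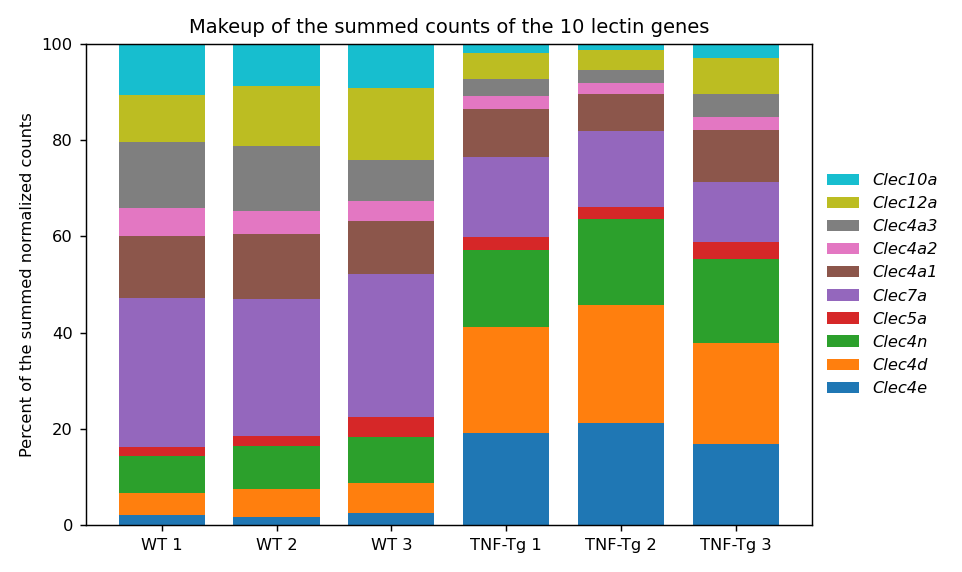
Percent of the summed normalized counts of the 10 lectin genes that each gene held, with a bar for each lung. Clec4d, Clec4e and Clec4n hold 55.3% to 63.7% of the bar in TNF-Tg lungs and 14.2% to 18.3% in WT lungs, while the share of Clec7a is 12.6% to 16.7% and 28.5% to 31.0%.

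Ratios between genes of the Clec4 cluster do not depend on the other members. The log2 ratio of Clec4e to Clec4d was -0.21, -0.23 and -0.32 in TNF-Tg lungs and -1.17, -1.80 and -1.28 in WT lungs. Clec4d to Clec4n had a mean log2 ratio of 0.40 ± 0.12 (SD, n = 3) in TNF-Tg lungs and -0.67 ± 0.08 (SD, n = 3) in WT lungs. Among the DCIR genes, the log2 ratio of Clec4a1 to Clec4a3 was 1.41 ± 0.20 (SD, n = 3) in TNF-Tg lungs and 0.10 ± 0.25 (SD, n = 3) in WT lungs, and that of Clec4a1 to Clec4a2 was 1.83 ± 0.11 and 1.36 ± 0.22 (SD, n = 3). The genotypes did not overlap in any of the 6 pairs formed within these 2 sets of 3 genes, and pairs of other genes were not compared. The gene with the larger fold change was the numerator of each, so the direction is set by that choice and the ratios describe the same fold changes.

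Markers of immune cells differed between the genotypes to varying extents, and their counts stand beside 24.0% of all genes tested called higher, 23.4% called lower and 47.4% in either direction. Of 14 macrophage and monocyte genes, 13 were higher in TNF-Tg lungs and 1, Siglecf, was lower (median log2 fold change 2.49, range -1.27 to 7.10), and their summed normalized counts were 360796 to 396436 in TNF-Tg lungs and 95377 to 97442 in WT lungs. Adgre1, which encodes the macrophage antigen F4/80, had a log2 fold change of 3.20 (SE 0.10), Csf1r, the receptor for macrophage colony-stimulating factor, 2.66 (SE 0.12), and the scavenger receptor gene Marco 7.10 (SE 0.58). Ptprc, carried by all leukocytes, rose by a log2 fold change of 1.43 (SE 0.13). Of 9 dendritic cell genes 5 were higher and 1 was lower (median 1.06, range -0.63 to 2.28), with log2 fold changes of 1.75 for Flt3 and 2.28 for Itgax. Neutrophil genes mostly went the other way. Of 10 such genes, 6 were lower and 2, Mmp9 and Csf3r, were higher in TNF-Tg lungs (median log2 fold change -1.26, range -5.90 to 4.99). The summed normalized counts of the 10 were 16417 to 20856 against 3875 to 6181. Mmp9 dominates these sums in TNF-Tg lungs (13620 to 18846) but not in WT lungs (449 to 589). The defining gene Ly6g was low in all lungs, with 13.2 to 22.8 normalized counts in TNF-Tg lungs and 24.9 to 36.4 in WT lungs. It was not called (log2 fold change -0.78, SE 0.32, adjusted p = 0.0804). S100a8 was lower in TNF-Tg lungs (log2 fold change -1.04, SE 0.29, adjusted p = 0.0203). The call of S100a8 was lost without TNF-Tg replicate 2 or 3 or WT replicate 3 (adjusted p = 0.0728, 0.0716 and 0.0564), and that of Csf3r, whose genotypes overlapped, without TNF-Tg replicate 1 or 3 or WT replicate 1 or 2 (0.0881, 0.11, 0.0969 and 0.0932). Of 6 B cell genes 3 were higher and none was lower (median log2 fold change 0.52, range 0.05 to 1.04), a share called near that of all genes, and of 8 T and NK cell genes 5 were higher and 1 was lower (median 0.86, range -2.22 to 4.84). Other marker calls were also lost with 1 lung left out. They were Mertk (any lung but TNF-Tg replicate 3, adjusted p = 0.0528 to 0.061) and Fcgr1 (replicate 1 or 3 of either genotype, 0.0704 to 0.0883) of the macrophage genes, and Ccr7, the lower dendritic cell gene (replicate 2 or 3 of either genotype, 0.0634 to 0.0877). Retnlg of the neutrophil genes was lost without TNF-Tg replicate 2 or 3 or WT replicate 3 (0.0592 to 0.0686), and the lymphocyte genes Cd79b (0.0589 to 0.119) and Cd3d (0.0621 to 0.106) without any lung but WT replicate 3.

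The level of each lectin gene was therefore set beside that of the macrophage and monocyte genes in the same lung, as the log2 normalized count minus the mean log2 of the 14 genes. That mean was 12.42 to 12.56 in TNF-Tg lungs and 9.98 to 10.18 in WT lungs. On this scale 7 of the 10 lectin genes had every TNF-Tg lung above every WT lung, where 1.73% of all genes tested did. Another gene, Clec10a, had every TNF-Tg lung below every WT lung, as did 93.7% of all genes tested.
Clec4e stood at -0.11, 0.18 and -0.49 in TNF-Tg lungs and at -4.96, -5.31 and -4.52 in WT lungs, a difference of 4.79. The difference was 3.65 for Clec4d, 2.59 for Clec4n, 1.76 for Clec5a, 1.21 for Clec4a1, 0.73 for Clec4a2 and 0.63 for Clec7a (two-sided exact permutation test, p = 0.1 for each of the 7, the smallest p possible with 3 lungs against 3). Clec12a (difference 0.50, exact permutation test p = 0.2) and Clec4a3 (difference -0.11, exact permutation test p = 0.7) overlapped between the genotypes. Clec10a was lower relative to these markers, at -3.59, -4.02 and -3.06 in TNF-Tg lungs and -2.60, -2.95 and -2.69 in WT lungs, a difference of -0.81 (exact permutation test, p = 0.1).
The result depended on the reference. Against Adgre1, Csf1r and Cd68 alone, which rose by more, the number above was 5, where 0.839% of all genes tested were above (Clec4e 4.10, Clec4d 2.96, Clec4n 1.90, Clec5a 1.07 and Clec4a1 0.52), while Clec4a2, Clec7a and Clec12a overlapped (differences 0.04, -0.06 and -0.19) and Clec4a3 and Clec10a were below (-0.80 and -1.50), as were 96.0% of all genes tested. Against Ptprc alone 9 were above, where 3.57% of all genes tested were, and Clec10a overlapped (difference 0.12). Against the neutrophil genes, whose mean log2 level fell by 1.26, all 10 were above, but so were 75.5% of all genes tested. These differences compare sums over all cells of the lung, and whether the cells that carry each lectin are those that carry the markers was not tested.

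**Figure D3:**
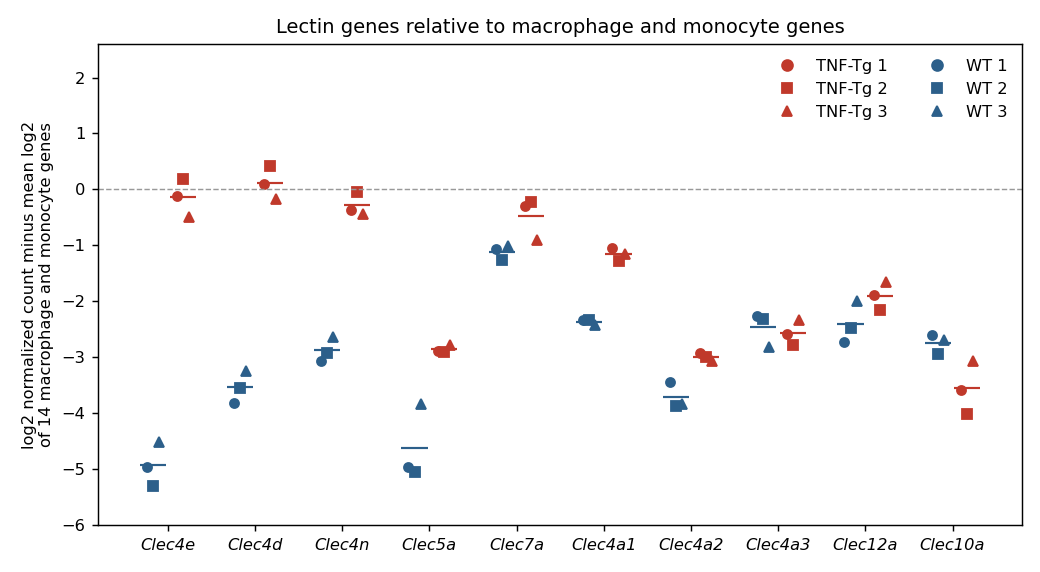
Level of each lectin gene relative to 14 macrophage and monocyte genes (log2 normalized count minus the mean log2 of the 14 genes) in each lung, with WT lungs in blue, TNF-Tg lungs in red and a line at the group mean. Clec4e, Clec4d and Clec4n lie between -0.49 and 0.41 in TNF-Tg lungs and between -5.31 and -2.64 in WT lungs, the groups of Clec4a3 and Clec12a overlap, and Clec10a is lower in TNF-Tg lungs.

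The adaptors and signalling genes downstream of the receptors were mostly higher in TNF-Tg lungs. Of 17 such genes 15 were higher, 1 was lower and 1 was not called (median log2 fold change 1.22), where 24.0% of all genes tested were called higher and 47.4% in either direction. Tyrobp, the DAP12 adaptor used by Clec5a, had 9587, 9131 and 8039 normalized counts in TNF-Tg lungs and 1001, 1352 and 1360 in WT lungs, a log2 fold change of 2.85 (SE 0.15, adjusted p = 8.38e-06). Fcer1g, the FcR gamma chain used by Clec4d, Clec4e and Clec4n, had 9247, 10003 and 7909 against 1335, 1406 and 1775, a log2 fold change of 2.59 (SE 0.15, adjusted p = 1.18e-05). Hcst, the DAP10 adaptor, had a log2 fold change of 1.84 (SE 0.25). For each of the 3 adaptors every TNF-Tg lung lay above every WT lung, as in 30.5% of all genes tested.
The kinase gene Syk rose by a log2 fold change of 1.37 (SE 0.12), the exchange factor gene Vav1 by 2.13 (SE 0.12) and Card9 by 1.22 (SE 0.14, adjusted p = 0.000271). The phosphatase genes that serve inhibitory receptors parted. Ptpn6 was higher, with 4648, 4541 and 5166 normalized counts in TNF-Tg lungs against 1206, 1706 and 1622 in WT lungs (log2 fold change 1.66, adjusted p = 6.51e-05). Ptpn11, which is used in most cell types, was lower, with 3146, 3347 and 3414 against 5634, 5340 and 4342 (log2 fold change -0.63, adjusted p = 0.00321). Vav3 had a log2 fold change of -0.17 (SE 0.21, adjusted p = 0.53).

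Other C-type lectin genes went in both directions. Of 32 listed, 28 were tested, and 12 were higher, 6 were lower and 10 were not called (median log2 fold change 0.48). The share called was 64.3%, against 47.4% of all genes tested. The higher ones were Clec2i, Clec4a4, Clec4b1, Cd69, Cd302, Ly75, Mgl2, Mrc1 and 4 of the Cd209 family (Cd209a, Cd209b, Cd209d and Cd209f). Cd209d, of the DC-SIGN family, had 146, 137 and 194 normalized counts against 17.2, 0.958 and 17.8 (log2 fold change 3.71, SE 0.59). For Cd209d, WT replicate 2 had 1 count, below the floor of 3. Mrc1, the mannose receptor of macrophages, had a log2 fold change of 1.53 (SE 0.11), and Mgl2, the close relative of Clec10a, of 0.57 (SE 0.17, adjusted p = 0.0224). Of the 12 called higher, 5 were not called with 1 lung left out. Mgl2 was lost without replicate 1 or 3 of either genotype (adjusted p = 0.1 and 0.076 for TNF-Tg, 0.0534 and 0.0606 for WT), Cd209f without TNF-Tg or WT replicate 3 (0.0537 and 0.0505) and Ly75 without WT replicate 2 (0.0519). Cd69 was lost without TNF-Tg replicate 1 or 3 or WT replicate 1 or 2 (0.0818 to 0.122), and Cd209b without any lung but WT replicate 2 (0.057 to 0.0716). The lower ones were Clec1a, Clec1b, Clec3b, Clec14a, Mrc2 and Pla2r1. Clec3b, which encodes the secreted protein tetranectin, had 124, 98.2 and 101 normalized counts in TNF-Tg lungs but 2621, 2450 and 2258 in WT lungs, which is a log2 fold change of -4.51 (SE 0.13, adjusted p = 2.45e-06). Clec1b, the platelet receptor CLEC-2, had 38.2, 112 and 55.7 normalized counts in TNF-Tg lungs and 315, 281 and 421 in WT lungs (log2 fold change -2.29, SE 0.37). Clec9a, a marker of cross-presenting dendritic cells, had a log2 fold change of -0.36 (SE 0.31, adjusted p = 0.368).

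**Figure D4:**
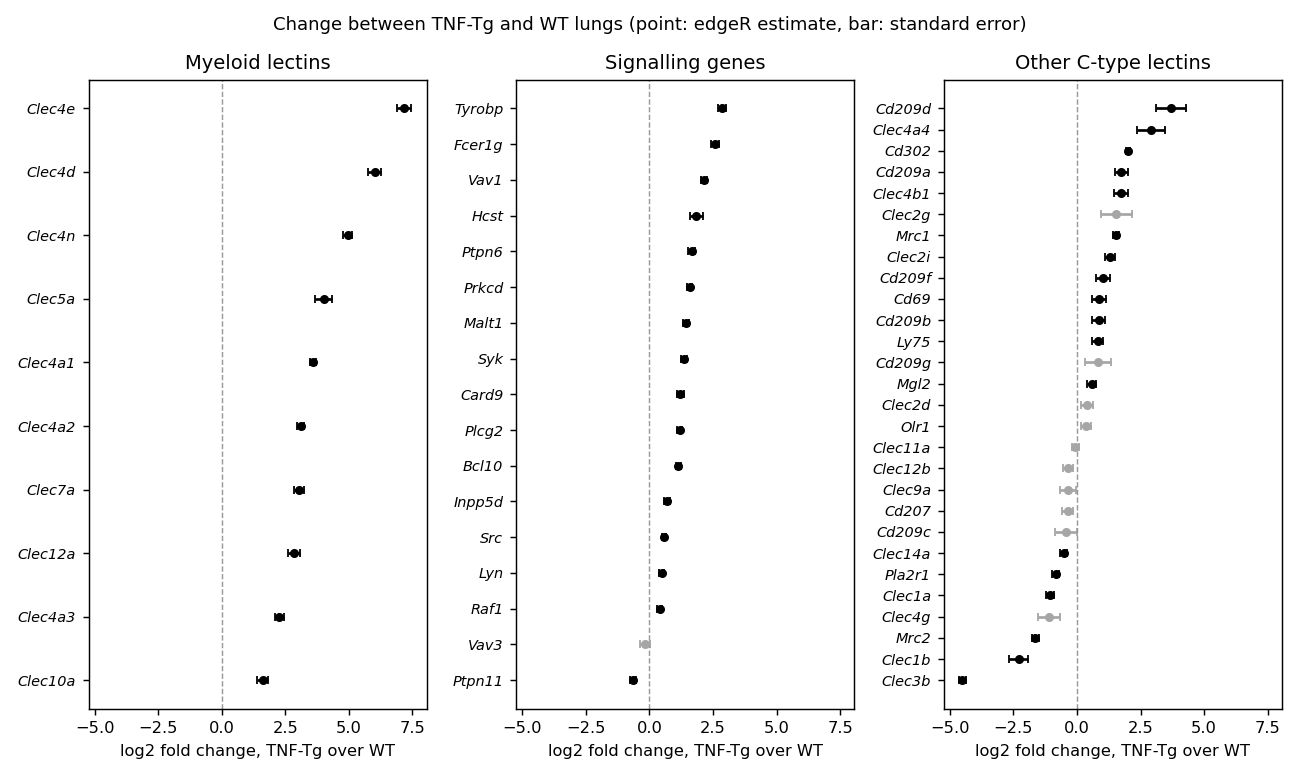
Log2 fold change of TNF-Tg over WT lungs (edgeR estimate with its standard error) for the 10 myeloid lectin genes, 17 signalling genes and 28 tested genes of other C-type lectins, in black where the adjusted p was under 0.05 and in grey otherwise. The lectin members lie between 1.60 and 7.17, the signalling genes between -0.63 and 2.85 and the other lectins between -4.51 and 3.71.

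The neighbours of the lectin genes were compared because 9 of the 10 lie on chromosome 6, in the Clec4 cluster, near each other in the natural killer gene complex (Clec12a and Clec7a) or alone (Clec5a). Of 112 other tested genes that start within 500 kb of a member, 36 were higher and 28 were lower in TNF-Tg lungs, or 57.1% called (median log2 fold change 0.19), near the 47.4% of all genes tested.
Around the Clec4 cluster 17 other genes were tested, of which 9 were higher, 2 were lower and 6 were not called, with log2 fold changes from -1.45 (Slc2a3, a glucose transporter) to 2.92 (Clec4a4, SE 0.56). The lectin genes Clec4a4, with 62.0, 60.0 and 51.9 normalized counts against 9.56, 12.5 and 0.889, and Clec4b1 (log2 fold change 1.73) were higher, as was the complement receptor gene C3ar1 (2.70). For Clec4a4, WT replicate 3 had 1 count, below the floor of 3. The genes on either side of C3ar1 did not pass the cutoff, with log2 fold changes of 0.00 for Foxj2 (SE 0.11) and 0.21 for Necap1 (SE 0.11). The 3 largest log2 fold changes of this interval were those of Clec4n, Clec4d and Clec4e, in the order of their place.
Around Clec12a and Clec7a, 27 other genes were tested, of which 5 were higher and 5 were lower. The lectin genes between Clec12a and Clec7a, and Olr1 next to Clec7a, had log2 fold changes of -0.36 for Clec12b (SE 0.21, adjusted p = 0.204), -2.29 for Clec1b (SE 0.37, adjusted p = 0.00141), -0.36 for Clec9a, -1.06 for Clec1a (SE 0.16, adjusted p = 0.00108) and 0.35 for Olr1 (SE 0.18, adjusted p = 0.141). On the far side of Clec12a, Cd69 was higher (0.86, SE 0.27, adjusted p = 0.0318). Around Clec5a 1 of 6 genes was called, Ssbp1 (log2 fold change 0.45, with an adjusted p of up to 0.0681 when 1 lung was left out), and around Clec10a 42 of 62 were called, 21 in each direction, from -3.25 for Asgr1 to 3.33 for Cd68.

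**Figure D5:**
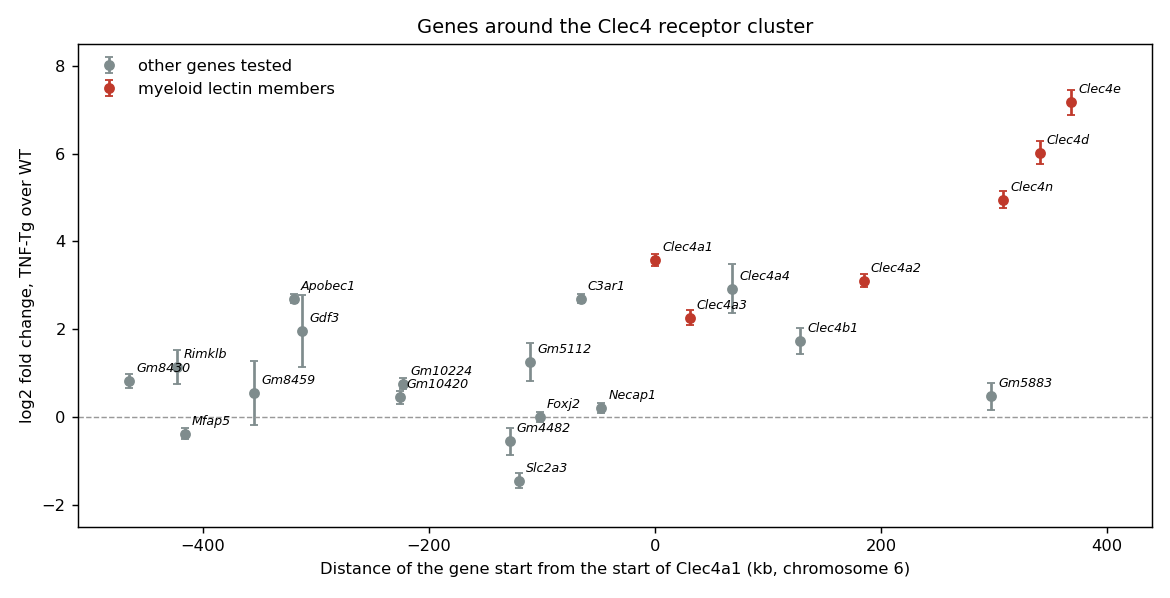
Log2 fold change of TNF-Tg over WT lungs (point) with its standard error (bar) of the genes tested around the Clec4 cluster, against the distance of each gene's start from that of Clec4a1 in kb on chromosome 6. The 6 lectin members, in red, lie between 2.26 and 7.17, with Clec4n, Clec4d and Clec4e at the right end, and the 17 other genes, in grey, between -1.45 and 2.92.

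Promoter windows of 8 of the 10 members were matched by symbol, 10 windows in all because Clec4a3 and Clec7a have 2 each, and the 250 bases before each start were searched on both strands. The starts used for Clec12a and Clec4a2 lie far inside the gene spans given above, so their windows are not those before the GENCODE gene starts. The PU.1 core GAGGAAG was found in Clec4a1, Clec4d, Clec5a (at 2 places) and Clec12a, which is 4 of the 10 member windows, and in 10.6% of all 32851 windows. A C/EBP motif, TTGCNNAA, was found in Clec4e and Clec12a (9.56% of all windows), an AP-1 motif, TGANTCA, in Clec12a (6.75%), and a TATA box, TATAAA, in Clec4a2, Clec4e and Clec5a (12.4%). No member window held the NF-kB motif (7.25% of all windows) or the interferon-stimulated response element core (2.98%). None of these motifs overlapped another in a member window, and such matches say only that the letters are present.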

How the data were processed

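The authors made stranded poly(A) libraries, cleaned single-end reads with Trimmomatic, mapped them with STAR (version 2.5.2b) to mm10 and deposited raw counts, the reads per gene symbol and lung, without normalization. The submitters' processing notes name Trimmomatic 0.36 (the study's methods give another version), GRCm38.p5 and featureCounts. The version of featureCounts, strand setting and annotation are not given in the sources used here. All 6 columns were matched to mice by genotype and number.

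Counts were filtered (filterByExpr), scaled with TMM and tested with edgeR's quasi-likelihood test (version 4.0.16, R version 4.3.3), with genotype alone in the model and Benjamini-Hochberg adjustment over all genes at 0.05. Standard errors are the log2 fold change divided by the square root of F. Each normalized count is the count over its TMM-scaled library total, times the mean of these totals. Relative levels used a pseudocount of 1. Per-lung values were compared with exact two-sided permutation tests, which cannot go below p = 0.1 for 3 lungs against 3. Positions, exon lengths and neighbours within 500 kb are from GENCODE M21 (GRCm38). The fit was also run on simulated counts with far fewer changed genes than were called here. Error control under change as wide as in these lungs was therefore not checked.

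The members and gene lists were chosen with earlier results of these data known. All members are named. By rule, values are given for up to 4 genes with the largest changes among the signalling genes, other lectins and neighbours, for the adaptors with Syk and Card9, and for the defining markers Adgre1, Csf1r, Ly6g, S100a8, Flt3, Itgax and Ptprc. Any other gene with a value was chosen after its values were seen. Alternatives were DESeq2 (version 1.42.0), its size factors, library totals, other filters (none, or at least 10 counts in every lung), a replicate block, lungs left out, stricter cutoffs and other reference genes.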

Additional observations from a re-analysis of the deposited data

How the results depend on the processing

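All 10 lectin genes kept their direction and an adjusted p under 0.05 in all 130 alternative fits (10 genes in 13 fits: DESeq2, its size factors, library totals, no filter, at least 10 counts in every lung, the replicate block, each lung left out and replicate 1 of both genotypes left out). The number called was 10 in each of these, at an adjusted p of 0.01 and with at least 1 of absolute log2 fold change. Log2 fold changes moved most with a lung left out, for Clec5a between 3.75 and 4.58. With the replicate block the largest adjusted p of a member was 0.00189 (Clec10a) and 7686 genes were called over all. Same-numbered lungs share only a number: their deviations from the group means correlated at -0.149, -0.00429 and -0.242 across genes, and no TNF-Tg lung correlated best with the WT lung of its number. The signalling genes called were 16 in most fits, 14 without replicate 1 of both genotypes and 11 with the minimum log2 fold change. The other lectins called were between 12 and 18. Over all genes, 5878 were called at 0.01, 4320 with the minimum log2 fold change and 6064 without replicate 1 of both genotypes. Near the lectin loci these cutoffs left 41 and 32 genes. The number of members above WT relative to macrophage and monocyte genes was 7 or 8 with a lung left out and 7 with a pseudocount of 0.5, but 5 relative to Adgre1, Csf1r and Cd68 (0.839% of all genes tested), 9 relative to Ptprc (3.57%) and 10 relative to the neutrophil list (75.5%). Shares without overlap numbered 9 or 10, with no count over all genes to set beside them.

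Clec4e and Clec5a had the fewest counts in WT lungs, 29 to 90 per lung, so their fold changes rest on few WT reads. Their SEs were the largest of the 10 (0.29 and 0.34). Read number was not all that differed: Clec4a2, with 80 to 96 counts per WT lung, had an SE of 0.14. For Clec5a, WT replicate 3 stood apart, with 90 counts against 33 and 35. With 3 lungs a group, an exact test cannot go under p = 0.1.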
